A study of Cucumis melo with 62 samples.

Results

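CmOr (MELO3C005449.2) and CmPSY1 (MELO3C025102.2) are carotenoid genes of melon flesh colour, chosen by name as 2 of the 29980 gene IDs of the deposited tables. Both passed the filter on low values in both tables. Fruit of melon, Cucumis melo, picked some 45 days after the flowers opened, was measured by RNA sequencing. The first set of 24 libraries came from Weslaco, Texas, in 2019 and held the 8 cultivars HD150, HD252, TH-5, TH-6, Infinite Gold, CRUSER, OC164 and PRIMO (n = 3 each). The second set of 38 libraries held the cultivars TTDV and F39, each from Arizona, California, Georgia, North Carolina and Uvalde in 2019 and from Uvalde in 2018, with TTDV also from Indiana in 2019 (n = 3 each, n = 2 for TTDV Georgia). All fruit is labelled WT in genotype, and no treatment is named. The labels give no flesh colour and no carotenoid content, and leave unsaid whether the libraries of a group are separate plants or fruits. The p-values therefore reflect the spread of these libraries, which may be technical.

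Carotenoids colour the flesh of orange melons and are made in plastids. Phytoene synthase (PSY) joins molecules of geranylgeranyl diphosphate into phytoene, the first committed step of the pathway, and CmPSY1 encodes a form of this enzyme. The deposited tables hold IDs only, and both gene names come from prior annotation of these IDs. The Orange protein (OR), encoded by CmOr, is a plastid protein with a DnaJ-like cysteine-rich domain that binds and stabilises PSY and favours the formation of chromoplasts, the plastids that store carotenoids. In melon, an arginine-to-histidine change in this protein separates orange from non-orange flesh, so the colour allele lies in the protein sequence and its presence was not analysed here. No reference sequence was paired with the IDs, and none is printed. Other genes of the pathway are likewise not analysed here, because no table paired their products with the deposited IDs.

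The level of a gene is given as normalised reads, that is reads recovered from the deposited variance-stabilised values and divided by the library's size factor. Totals ranged from 4041908 to 21290476 reads at Weslaco and from 6251302 to 31333150 in the F39 and TTDV libraries. The CRUSER libraries were the shallowest at Weslaco, with 4041908, 7806433 and 7086348 reads. CmOr was read 93 to 2441 times per library at Weslaco and 327 to 2368 times in the others, and CmPSY1 169 to 4423 and 251 to 5543 times, so neither gene was limited by low counts. Differences, with their standard errors (SE), use the log2-like scale of the deposited values, on which a gene at 1000 normalised reads gains 0.975 if its reads double. Levels of CmOr and CmPSY1 are not compared with each other as levels, since gene lengths were not used. In bulk fruit, fewer cells of a type and less RNA per cell cannot be told apart.

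The 6 Uvalde 2019 libraries went against their cultivar labels. MELO3C016167.2, a gene without a product name that separates the cultivars, had 7521 to 20690 normalised reads in the libraries labelled TTDV and 492 to 1045 in those labelled F39 at Uvalde 2019 (n = 3 each). In the other environments it had 25.3 to 648 in TTDV (n = 17) and 7795 to 30888 in F39 (n = 15). F39 Georgia replicates 2 and 3 had 506 and 525.6 normalised reads of MELO3C024745.2, which had at most 10.7 in the 12 F39 libraries outside Georgia and Uvalde 2019. TTDV outside Uvalde 2019 had 321 to 3057 reads of MELO3C024745.2 (n = 17). For MELO3C016167.2, however, these Georgia libraries had 14045 and 15613, within the F39 range, so the genes differ on them. F39 Uvalde 2019 replicate 3 and TTDV North Carolina replicate 3 were each other's most similar library (r = 0.976 across genes) and are called the pair of similar libraries. Labels were kept, and the main results that use these libraries are also given without them.

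CmOr, the stabiliser of phytoene synthase, differed among the 8 Weslaco cultivars. HD252 had 1370, 1514 and 1446 normalised reads, the highest group. TH-5 had 1307, 1094 and 1220, and HD150 had 1086, 1365 and 1165. These cultivars formed the upper end of the range, with libraries of TH-5 and HD150 interleaved. OC164 followed with 972, 1062 and 844 normalised reads, then Infinite Gold with 770, 858 and 759. TH-6 had 774, 612 and 826. CRUSER had 432, 691 and 609, and PRIMO had 509, 433 and 569. All libraries of HD252, TH-5 and HD150 lay above all libraries of OC164, Infinite Gold, TH-6, CRUSER and PRIMO. The mean of HD252 (1443 ± 72.2, SD, n = 3) was 2.86 times that of PRIMO (504 ± 67.9, n = 3).

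**Figure D1:**
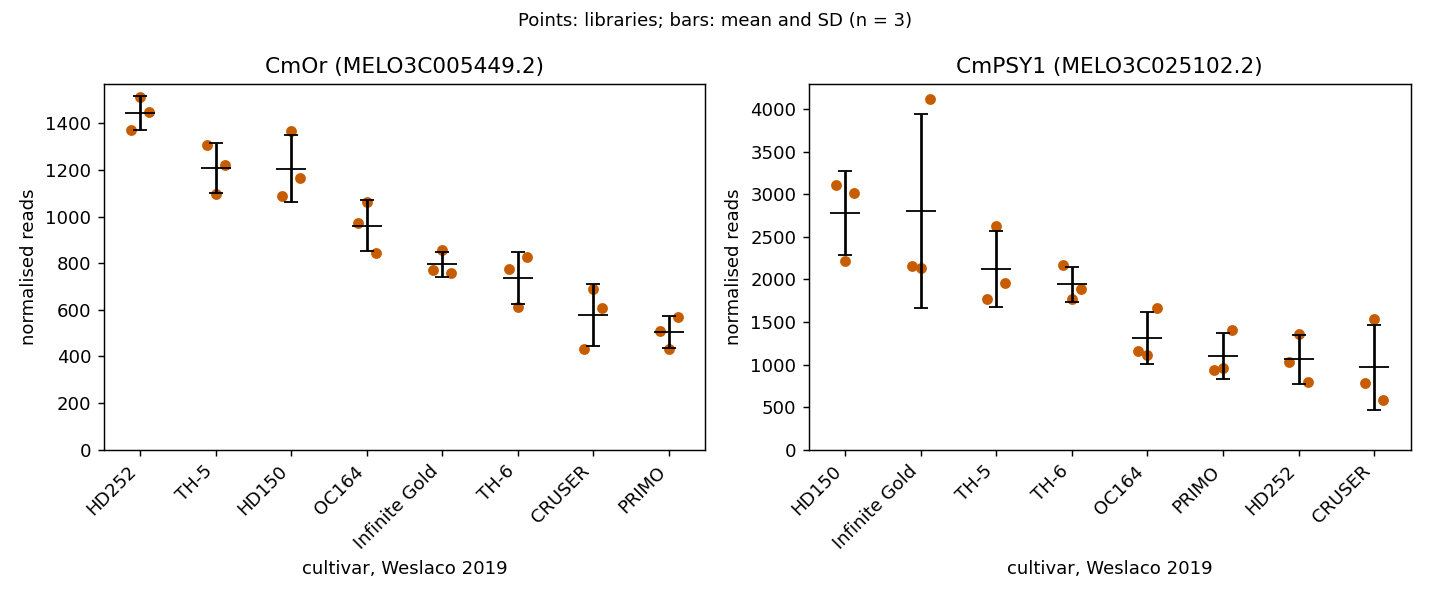
Normalised reads of CmOr (left) and CmPSY1 (right) in fruit of 8 cultivars at Weslaco, ordered from the highest to the lowest mean of the variance-stabilised values; points are libraries and bars are the mean and SD (n = 3). HD252 is first for CmOr with a mean of 1443 and next to last for CmPSY1 with a mean of 1060.

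In limma's F test over the 8 cultivars CmOr had F = 18.0 (adjusted p = 6.89e-06), where 58% of the 17131 genes tested passed. Groups held 91.4% of its variance, against a median of 60.5% over all genes tested, and 98.6% of the genes had a lower share. Its SD within groups was 0.18 on the log2-like scale, lower than in most genes (median 0.36), while the range of its cultivar means was 1.46 against a median of 1.15. The variation of CmOr thus lay mainly between cultivars rather than between libraries of a cultivar. Sample weights moved F to 28.5. Of the 28 pairs of cultivars, 17 passed the threshold in limma for CmOr when adjusted over all genes and pairs, where 16.1% of all tests passed. A fit to the compared groups alone gave 11, but the share over all genes was not taken in that fit.

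No neighbours in the order of CmOr levels passed the threshold, although the libraries of HD252 and TH-5 did not overlap, nor did those of HD150 and OC164. The steps were examined from the lowest cultivar upward. PRIMO minus CRUSER was -0.17 (95% interval -0.53 to 0.19, limma adjusted p = 0.568). TH-6 minus CRUSER was 0.35 (-0.01 to 0.71, adjusted p = 0.187), and TH-6 minus Infinite Gold -0.11 (-0.48 to 0.25). These intervals do not show that the levels were alike. OC164 minus Infinite Gold was 0.26 (-0.11 to 0.62), OC164 minus HD150 -0.32 (-0.68 to 0.04) and TH-5 minus HD150 0.00 (-0.36 to 0.37). TH-5 minus HD252 was -0.25 (-0.62 to 0.11, adjusted p = 0.357). Across the widest gap PRIMO minus HD252 was -1.46 ± 0.17 (SE, adjusted p = 1.23e-05), where 32.6% of genes passed. The lines TH-5 and TH-6, which share a name prefix, differed by 0.69 ± 0.17 (TH-5 minus TH-6, adjusted p = 0.00968), while 8.32% of genes passed between them.

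CmPSY1, the enzyme of the first committed step, had another order of cultivars. HD150 had 3104, 2217 and 3015 normalised reads, and Infinite Gold had 2157, 2130 and 4115. TH-5 had 1775, 2625 and 1961, and TH-6 had 2170, 1773 and 1886. In these 4 cultivars every library had more reads than every library of OC164, PRIMO, HD252 and CRUSER. OC164 had 1164, 1108 and 1658, and PRIMO had 934, 961 and 1410. HD252 had 1033, 1355 and 792. CRUSER had 785, 1531 and 582, the lowest library of the set among them. The means of HD150 (2778 ± 489, SD) and Infinite Gold (2801 ± 1138) were 2.88 and 2.90 times that of CRUSER (966 ± 500, n = 3 each).

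CmPSY1 had F = 8.28 over the 8 cultivars in limma (adjusted p = 0.000543), with the same 58% of genes passing. Groups held 76.5% of its variance, and its SD within groups was 0.40, close to the median of 0.36 over all genes. The largest difference was CRUSER minus HD150 at -1.59 ± 0.31 (SE, limma adjusted p = 0.00147), where 25.3% of genes passed. In limma 12 of the 28 pairs passed, where 16.1% of all tests over genes and pairs did. Each of the 12 lay between one of HD150, Infinite Gold, TH-5 and TH-6 and one of OC164, PRIMO, HD252 and CRUSER. These sets were cut by the same CmPSY1 reads, so where the pairs fell is no separate evidence for the sets. None of the pairs within either set of cultivars passed, and neither did TH-6 minus HD252 (0.88, 95% interval 0.24 to 1.52, adjusted p = 0.0568), TH-6 minus PRIMO (0.82, 0.18 to 1.46), TH-6 minus OC164 (0.57, -0.07 to 1.22) or TH-5 minus OC164 (0.68, 0.04 to 1.33). Neighbours in the order overlapped in their libraries, apart from TH-6 and OC164. HD150 minus Infinite Gold was 0.04 (95% interval -0.60 to 0.69), and PRIMO minus HD252 was 0.06 (-0.58 to 0.70).

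The lines HD150 and HD252 show how the genes parted. For CmPSY1 HD150 minus HD252 was 1.38 ± 0.31 (SE, limma adjusted p = 0.0044), where 8.86% of genes passed. For CmOr the same difference was -0.26 (95% interval -0.62 to 0.10, adjusted p = 0.346). TH-5 and TH-6 ran the other way round, with CmOr past the threshold and CmPSY1 at 0.11 (-0.53 to 0.75, adjusted p = 0.858). Whether a pair differed more in one gene than in the other was not tested. HD252 minus Infinite Gold had opposite signs in both genes, each past the threshold, with 0.83 ± 0.17 for CmOr (adjusted p = 0.00263) and -1.33 ± 0.31 for CmPSY1 (adjusted p = 0.00552), where 20.7% of genes passed.

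Reads of CmPSY1 per read of CmOr, taken within each library and so free of the size factor, describe the balance of the genes. The ratio is of reads and not of molecules, so a value of 1 does not mark equal levels of the genes. In HD252 it was 0.548 to 0.895, under 1 in 3 of 3 libraries, against 0.956 to 5.42 in the other 21 Weslaco libraries, of which 1 was under 1. Infinite Gold had the highest mean, 3.57 ± 1.61 (SD, n = 3), with the highest library at 5.42. In the TTDV and F39 set 5 of 38 libraries were under 1. TTDV had a ratio of 4.14 ± 0.68 at California, the highest mean of that set, against 1.26 ± 0.32 in F39 (SD, n = 3 each). TTDV North Carolina had 0.995 ± 0.34 and the libraries labelled TTDV at Uvalde 2019 had 1.03 ± 0.45 (n = 3 each), the lowest means. These groups were picked by their ratios, and no test is given.

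**Figure D2:**
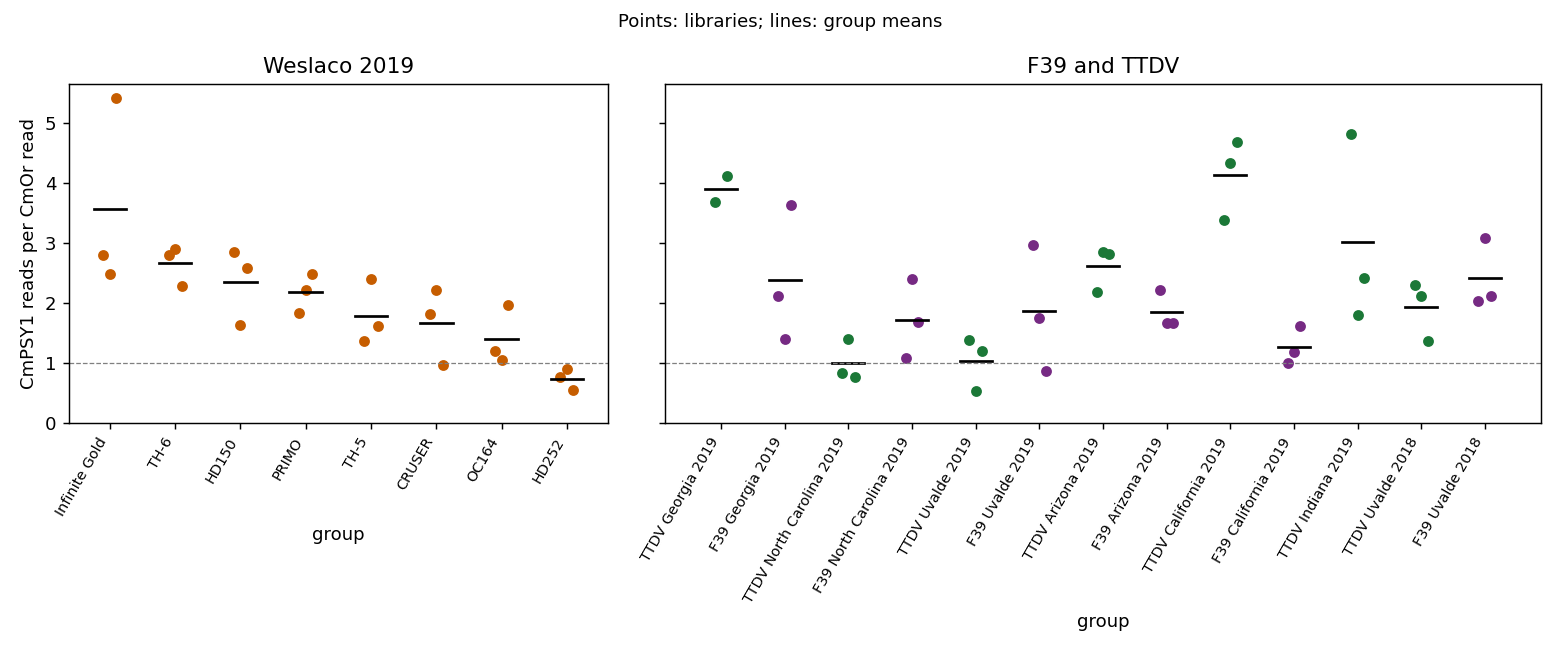
CmPSY1 reads per CmOr read in each library at Weslaco (left) and in the F39 and TTDV libraries (right); points are libraries, short lines are group means and the dashed line marks a ratio of 1. HD252 lies under the line in all 3 libraries, and TTDV California is the highest group at right with a mean of 4.14.

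Across environments, TTDV and F39 did not differ past the threshold in CmOr on average. TTDV had 562 to 1106 normalised reads with a median of 923 (n = 17), and F39 had 541 to 1230 with a median of 958 (n = 18), over the 6 shared environments. TTDV minus F39, averaged over these environments, was -0.02 ± 0.10 (SE, 95% interval -0.21 to 0.18, limma adjusted p = 0.938), where 9.33% of genes passed. Without the Uvalde 2019 libraries it was 0.01 (adjusted p = 0.973). The range of its 13 group means was 0.63 on the log2-like scale, and 3.45% of the genes tested had a smaller one. Its SD within groups of 0.27 was below the median of 0.41, and 9.53% of genes had a smaller one.

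**Figure D3:**
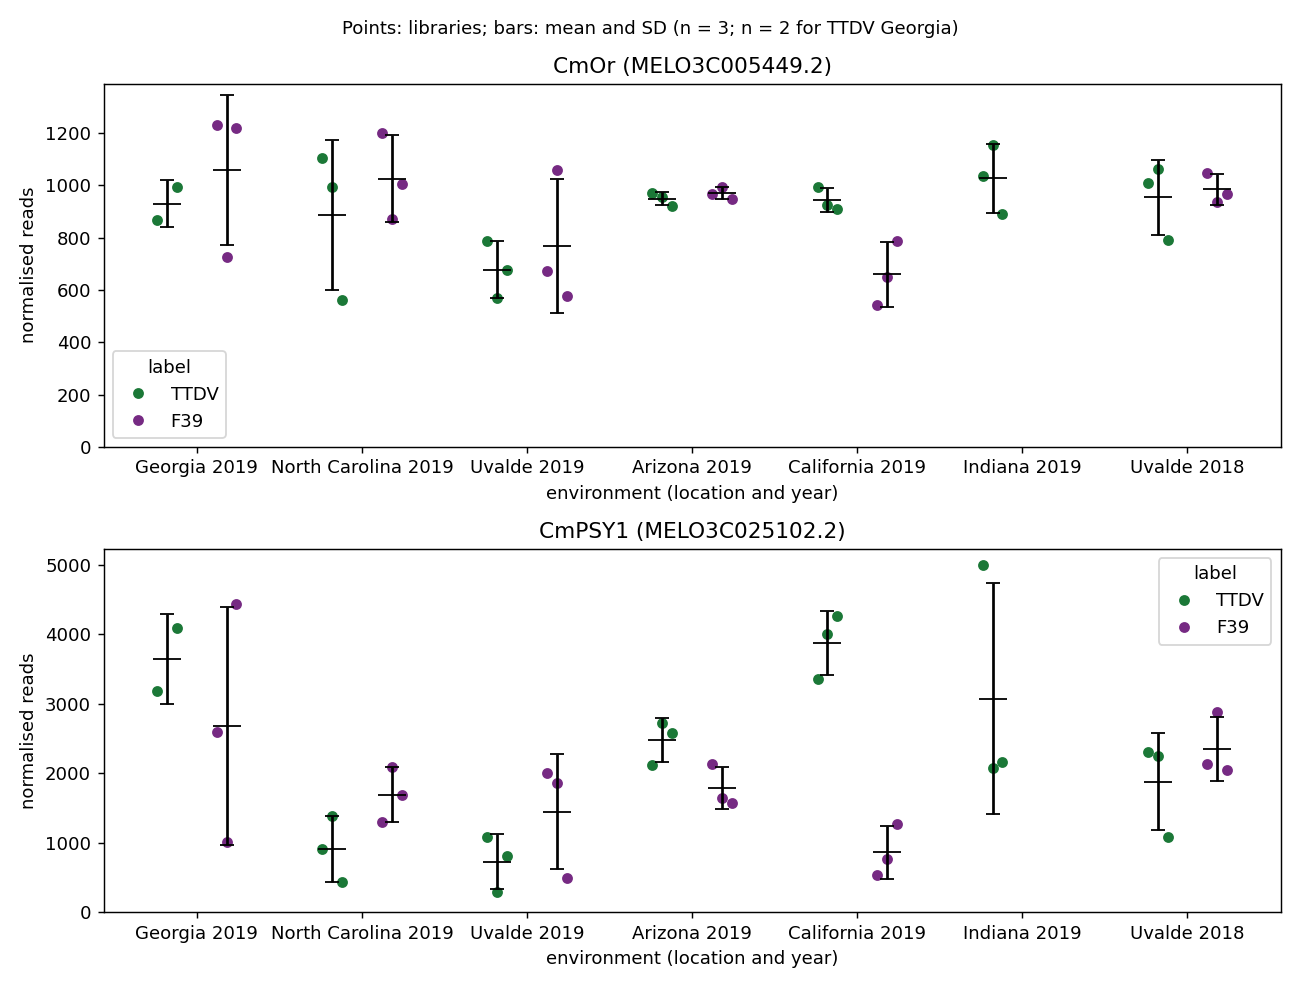
Normalised reads of CmOr (top) and CmPSY1 (bottom) in TTDV and F39 fruit of each environment; points are libraries and bars are the mean and SD (n = 3, n = 2 for TTDV Georgia). TTDV and F39 do not overlap at California for either gene, and the CmPSY1 means of the 13 groups lie between 728 and 3877.

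Within single environments CmOr passed the threshold nowhere between the cultivars. At California TTDV had 995, 923 and 909 normalised reads, and F39 had 541, 651 and 788. All TTDV libraries lay above all F39 libraries there, a difference of 0.51 ± 0.23 (SE, 95% interval 0.03 to 0.98, limma adjusted p = 0.135), where 16.8% of genes passed. With sample weights the adjusted p was 0.00266, and leaving out the pair of similar libraries brought it to 0.0495. At Arizona the libraries had 969, 956 and 921 in TTDV and 967, 995 and 949 in F39, the tightest values of any location. The groups overlapped in each environment other than California.

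At Georgia CmOr had 866 and 994 normalised reads in TTDV and 1230, 727 and 1221 in F39, a difference of -0.15, and of -0.39 without F39 replicates 2 and 3. At North Carolina it had 1106, 993 and 562 in TTDV and 1201, 870 and 1006 in F39, the library at 562 being TTDV replicate 3. At Uvalde 2019 the libraries labelled TTDV had 788, 569 and 677 and those labelled F39 had 672, 1059 and 575. In each of these places a single library lay apart from the rest of its group. At Uvalde 2018 TTDV had 1008, 1064 and 791 and F39 had 1048, 936 and 968, and TTDV at Indiana had 1037, 1153 and 891. Over the other 5 shared environments TTDV minus F39 was between -0.24 and -0.03, and the sign at North Carolina, Uvalde 2019 and Uvalde 2018 turned when a single library was left out. The difference of the cultivars did not vary between environments past the threshold (F = 1.33, limma adjusted p = 0.380), where 29.4% of genes passed. Without Uvalde 2019 F was 1.83 (adjusted p = 0.250).

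CmPSY1 likewise missed the threshold between the cultivars on average, but its cultivar difference changed with the environment. TTDV had 298 to 4267 normalised reads with a median of 2252 (n = 17) and F39 had 492 to 4439 with a median of 1772 (n = 18). The mean difference was 0.18 ± 0.21 (SE, 95% interval -0.26 to 0.61, limma adjusted p = 0.673), and 0.39 without the Uvalde 2019 libraries (adjusted p = 0.167). The interaction of cultivar and environment had F = 5.55 (limma adjusted p = 0.0083), where 29.4% of genes passed. It had F = 7.72 without Uvalde 2019 (adjusted p = 0.00497). It also passed in each of the 38 fits that left out a library (F from 4.23 to 7.97). Sample weights gave F = 16.2.

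At California CmPSY1 had 3362, 4002 and 4267 normalised reads in TTDV and 539, 769 and 1272 in F39. The lowest TTDV library was well above the highest F39 library, and the ratio of the means was 4.51. The difference was 2.20 ± 0.51 (SE, 95% interval 1.16 to 3.24, limma adjusted p = 0.00343), where 9.69% of genes passed as higher in TTDV. In size it lay above that of 96.6% of the genes tested. Among the environments California held the highest TTDV mean and the lowest F39 mean.

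In the other environments the cultivars overlapped in CmPSY1 or did not pass. At North Carolina TTDV had 917, 1379 and 431 normalised reads and F39 had 1301, 2090 and 1688, a difference of -0.99 (95% interval -2.03 to 0.05, limma adjusted p = 0.276), where 4.07% of genes passed. The library at 431 was TTDV replicate 3, and without it the difference was -0.55. At Uvalde 2019 the libraries labelled TTDV had 1083, 298 and 804, and those labelled F39 had 2001, 1857 and 492. The difference of -0.90 (-1.94 to 0.14, adjusted p = 0.341) missed the threshold, where 4.77% of genes passed. Its sign follows the doubted labels and would turn if these were exchanged. With sample weights the difference was -1.20 (limma adjusted p = 0.0294).

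At Georgia TTDV had 3189 and 4098 normalised reads of CmPSY1 and F39 had 2599, 1012 and 4439, so that both TTDV libraries lay within the F39 range. The difference of 0.66 (95% interval -0.50 to 1.82, limma adjusted p = 0.644) missed the threshold, where 2.26% of genes passed. It was 0.089 without F39 replicate 2, 1.14 without F39 replicate 3 and 0.47 without both. At Arizona TTDV had 2119, 2727 and 2585 and F39 had 2139, 1651 and 1577, a difference of 0.47 (-0.57 to 1.51, limma adjusted p = 0.918) where 1.28% of genes passed. At Uvalde 2018 TTDV had 2312, 2252 and 1081 and F39 had 2128, 2884 and 2052, a difference of -0.38 (-1.42 to 0.66, limma adjusted p = 0.640) where 21.5% of genes passed. Without TTDV replicate 3, the library at 1081, it was -0.028, without F39 replicate 2 it was -0.23, and after quantile normalization it was -0.17.

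**Figure D4:**
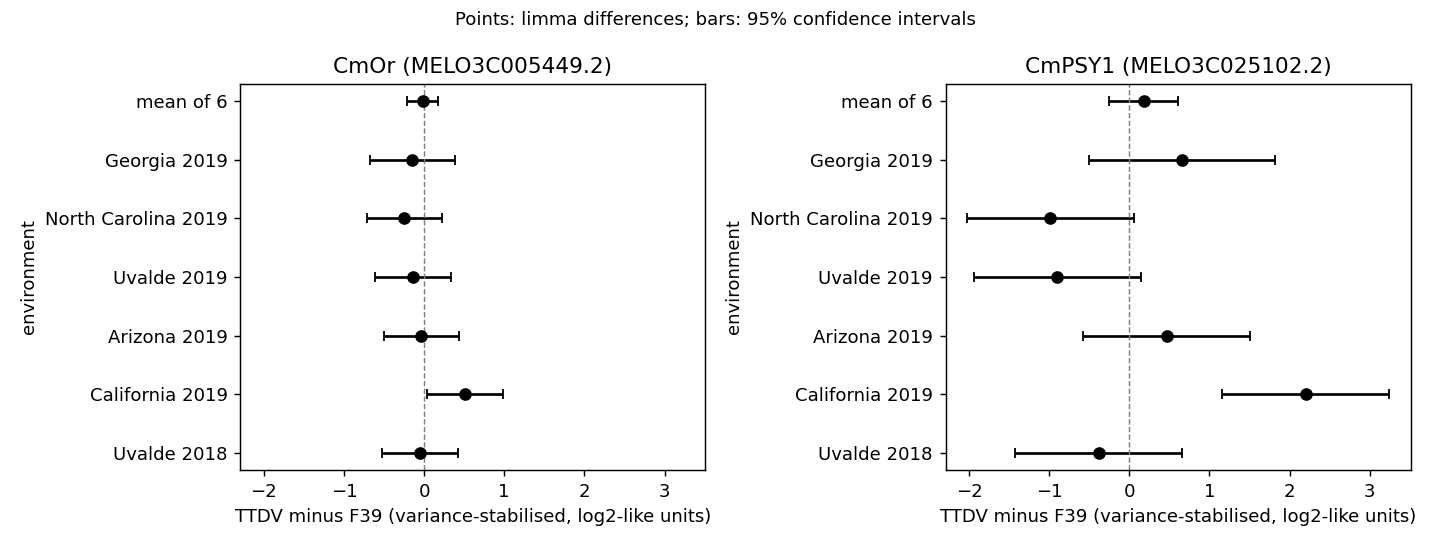
TTDV minus F39 for CmOr (left) and CmPSY1 (right) in each of the 6 shared environments and as their mean, on the log2-like scale; points are limma differences and bars are 95% confidence intervals. The interval of CmPSY1 at California runs from 1.16 to 3.24, and those of the other environments cross 0.

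Whether the level varied between places was examined within each cultivar. In TTDV CmPSY1 differed over the 7 environments (F = 7.33, limma adjusted p = 0.00139), where 31.7% of genes passed, and it still did so over 6 environments without Uvalde 2019 (F = 6.62, adjusted p = 0.00723). Sample weights gave F = 13.04. By the mean of the variance-stabilised values the TTDV order was California, Georgia, Indiana, Arizona, Uvalde 2018, North Carolina and Uvalde 2019. Indiana had 4994, 2076 and 2157 normalised reads, so its mean of 3076 ± 1662 (SD, n = 3) rested on 1 library.

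Of the 21 pairs of TTDV environments, 7 passed in limma for CmPSY1 when adjusted over all genes and pairs, where 7.02% of such tests passed. Each of the 7 set North Carolina or Uvalde 2019 against a higher environment. Uvalde 2019 minus California was -2.52 ± 0.51 (SE, adjusted p = 0.00225) and North Carolina minus California was -2.18 ± 0.51 (adjusted p = 0.00741). Of the 7, 4 used the Uvalde 2019 libraries labelled TTDV, whose labels are in doubt. In these 4 place and cultivar cannot be told apart. On the log2-like scale the libraries labelled TTDV at Uvalde 2019 had a mean of 9.41 and those labelled F39 10.31, against 11.93 in TTDV California. In the table refitted without the Uvalde 2019 libraries 6 pairs passed over both cultivars. Neighbours in the order did not pass. Without F39 Uvalde 2019 replicate 3 the count over both cultivars was 11, with sample weights 16, and in fits of the compared groups alone 3. Shares over all genes were not taken in these refits, so the changes in count cannot be read as particular to CmPSY1.

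In F39 CmPSY1 did not pass over the 6 environments (F = 2.46, limma adjusted p = 0.111), where 37.8% of genes passed. In limma 0 of 15 F39 pairs passed, where 9.04% of such tests did and 3 CmPSY1 pairs had an unadjusted p under 0.05. By the same means the F39 order was Uvalde 2018, Georgia, Arizona, North Carolina, Uvalde 2019 and California. Without the Uvalde 2019 libraries the adjusted p was 0.0416, without F39 Georgia replicate 2 it was 0.0297, with sample weights 0.0018, and without the pair of similar libraries 0.0464. The spread within groups was wide, with F39 Georgia at 1012 to 4439 normalised reads.

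CmOr passed between environments in neither cultivar. In TTDV F was 1.33 (limma adjusted p = 0.364), and 0.28 without Uvalde 2019 (adjusted p = 0.937). In F39 F was 2.66 (limma adjusted p = 0.0902), and 3.08 without Uvalde 2019 (adjusted p = 0.0773). In limma 0 of 36 pairs of environments passed, whereas 7.86% of all such tests did, and 7 pairs had an unadjusted p under 0.05. The count was likewise 0 with voom on the recovered reads. It was 1 without F39 Georgia replicate 2 or without TTDV North Carolina replicate 3, 4 without the pair of similar libraries and 7 with sample weights. As shares over all genes were not taken in these refits, the changes in count cannot be read as particular to CmOr. The F39 test passed with sample weights (limma adjusted p = 0.00416), without the pair of similar libraries (0.0404), and without F39 Georgia replicate 2, TTDV North Carolina replicate 3 or F39 Uvalde 2019 replicate 2 (0.0291 to 0.0378).

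Averaged over both cultivars, Uvalde 2019 stood below the other 4 locations of that year in CmPSY1. Its 6 libraries had 298 to 2001 normalised reads with a median of 943, against 431 to 4439 with a median of 2090 in the other 23. The difference was -1.05 ± 0.29 (SE, limma adjusted p = 0.00987), where 20.3% of genes passed and 8.27% passed as lower. It missed the threshold without F39 Uvalde 2019 replicate 3 (-0.73, adjusted p = 0.0614) or TTDV Uvalde 2019 replicate 2 (-0.79, adjusted p = 0.0691), the lowest libraries there, and sample weights gave -0.64. As both cultivars enter equally, a full exchange of the cultivar labels at Uvalde would leave the location difference in place. This does not cover location labels, and F39 Uvalde 2019 replicate 3 was most similar to TTDV North Carolina replicate 3.

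CmOr at Uvalde 2019 had 569 to 1059 normalised reads with a median of 675 (n = 6), against 541 to 1230 with a median of 956 elsewhere (n = 23). The difference of -0.35 ± 0.13 (SE, limma adjusted p = 0.0555) missed the threshold, and the adjusted p ranged from 0.0101 to 0.0859 over 9 alternatives. It passed without any 1 of F39 Georgia replicate 2, TTDV North Carolina replicate 3, F39 Uvalde 2019 replicate 2, TTDV Uvalde 2019 replicate 1 and F39 California replicate 1 (adjusted p from 0.0142 to 0.0451). Both genes thus had lower medians at Uvalde in 2019, and only CmPSY1 passed in the main fit.

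Georgia was higher than the other 4 locations in CmPSY1, with 1012 to 4439 normalised reads and a median of 3189 (n = 5) against 298 to 4267 with a median of 1614 (n = 24). The difference of 1.01 ± 0.31 (SE, limma adjusted p = 0.039) passed, where 9.27% of genes passed and 5.06% passed as higher. It missed the threshold without any 1 of 7 libraries in turn, F39 Georgia replicates 1 and 3, TTDV Georgia replicates 1 and 2, F39 Arizona replicate 3, TTDV Arizona replicate 1 and TTDV California replicate 1 (adjusted p up to 0.277). It also missed it without the Uvalde 2019 libraries (0.80, adjusted p = 0.0887). North Carolina had a difference of -0.57 (limma adjusted p = 0.162), where 19.6% of genes passed, and -0.89 without Uvalde 2019 (adjusted p = 0.0097). Because each location also enters the average used for its neighbours, these differences are not independent.

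Arizona and California passed for neither gene, with CmPSY1 at 0.45 (95% interval -0.14 to 1.03, limma adjusted p = 0.382) and 0.16 (-0.42 to 0.75, limma adjusted p = 0.861), where 4.82% and 0.570% of genes passed. Without Uvalde 2019 these were 0.20 and -0.11. The California mean of both cultivars averages the highest group of the table with one of the lowest. TTDV fruit of Indiana had 2076 to 4994 normalised reads of CmPSY1 against 298 to 4267 in TTDV of the other 5 locations, a difference of 0.64 (-0.17 to 1.45, limma adjusted p = 0.736), and of 0.28 without Uvalde 2019. For CmOr the Indiana difference was 0.24 (-0.13 to 0.60, limma adjusted p = 0.793), and 0.0173% of genes passed.

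Between years at Uvalde, CmPSY1 had 298 to 2001 normalised reads in 2019 and 1081 to 2884 in 2018 (n = 6 each). The means were 1089 ± 705 and 2118 ± 587 (SD), and 2019 minus 2018 was -1.16 ± 0.36 (SE, limma adjusted p = 0.0222), where 21.4% of genes passed and 11.5% passed as lower in 2019. The call was lost without F39 Uvalde 2019 replicate 3, TTDV Uvalde 2019 replicate 2, F39 Uvalde 2018 replicate 2 or TTDV Uvalde 2018 replicate 1 (adjusted p from 0.053 to 0.0867) and in a fit of the compared groups alone (adjusted p = 0.0944). CmOr had a mean of 723 ± 183 in 2019 and 969 ± 99.7 in 2018, a difference of -0.43 ± 0.16 (adjusted p = 0.058). It passed without any 1 of F39 Georgia replicate 2, TTDV North Carolina replicate 3, F39 Uvalde 2019 replicate 2, TTDV Uvalde 2019 replicate 1 and TTDV Uvalde 2018 replicate 3 (adjusted p from 0.0169 to 0.0445).

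Whether the genes moved together was examined over group means. Over the 8 Weslaco cultivars the relation was weak, with Pearson's r = 0.342 (exact permutation test, two-sided p = 0.389) and Spearman's rho = 0.286 (exact permutation p = 0.501). Without HD252 and PRIMO, the cultivars farthest from the median of CmOr, r was 0.621 over 6 cultivars (exact permutation p = 0.206). Over the 13 groups of TTDV and F39, r was 0.773 (permutation test, p = 0.00476, 0.00952 adjusted over the 2 relations) and rho was 0.511 (p = 0.0781, adjusted 0.156). The permutation treated these groups as independent, although they share cultivars and environments, so its p-values may be too small. Without TTDV Uvalde 2019 and F39 California, the groups farthest from the median of CmOr, r was 0.518 over 11 groups (permutation p = 0.134), so the test no longer passed without them. Leaving out both Uvalde 2019 groups gave r = 0.657, with a permutation p of 0.0469 that was not adjusted over the 2 relations. With 1 library left out, r was 0.682 to 0.826.

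Within groups the deviations of the libraries from their group means correlated with r = 0.679 over the 38 TTDV and F39 libraries and with r = 0.0465 over the 24 Weslaco libraries, as a description of values that share a library and its size factor. It was 0.600 without the pair of similar libraries. Libraries of a group that were low in CmOr thus tended to be low in CmPSY1 in the TTDV and F39 set. Whether the sets differ in this was not tested.

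**Figure D5:**
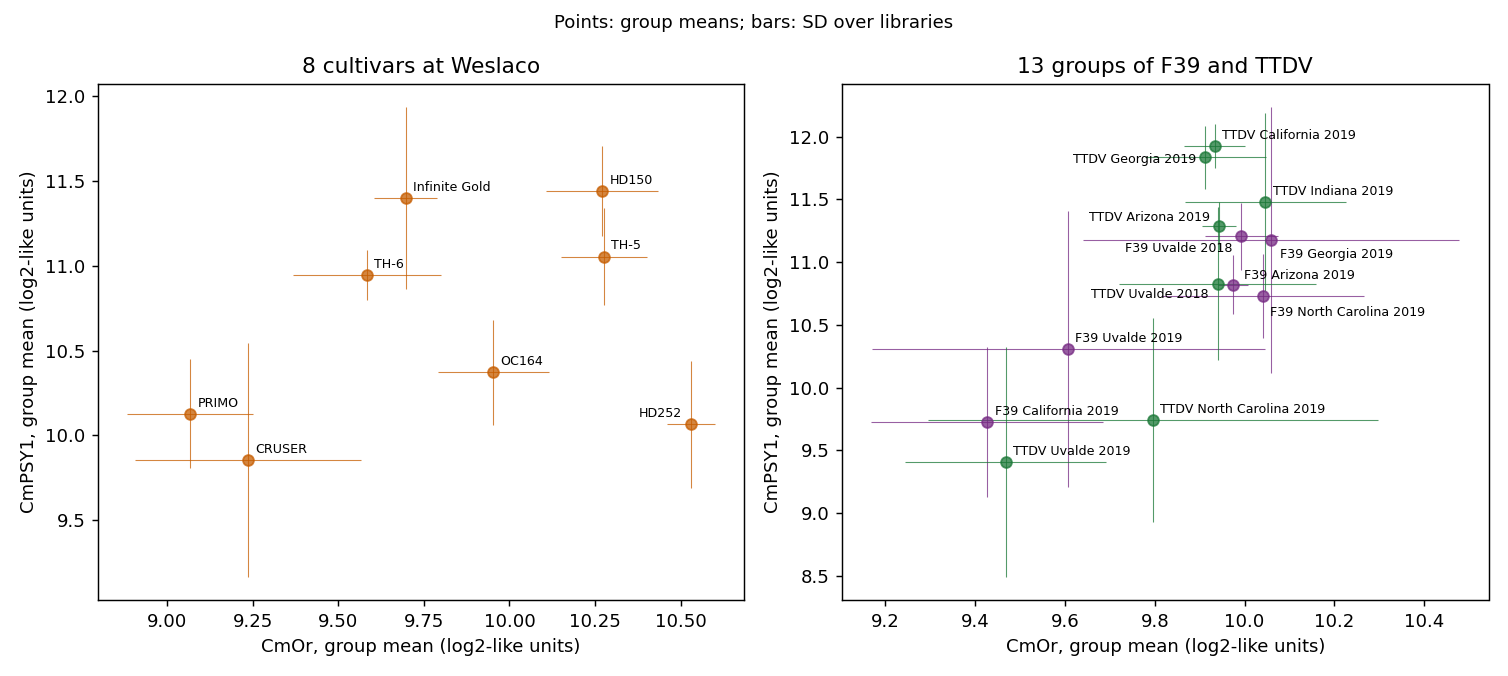
Group means of CmPSY1 against CmOr on the log2-like scale for the 8 Weslaco cultivars (left) and for the 13 groups of TTDV (green) and F39 (purple) (right); bars are the SD over libraries. HD252 lies at the high end of CmOr and the low end of CmPSY1, and at right F39 California and TTDV Uvalde 2019 are low in both.

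Genes whose pattern was most like each member are given by ID, since no product was paired with them. For CmOr these were MELO3C003233.2 (r = 0.856 over the 24 Weslaco libraries and 0.818 over the 38 others) and MELO3C014127.2 (0.832 and 0.791). MELO3C022885.2 (-0.895 and -0.795) and MELO3C002146.2 (-0.809 and -0.794) ran most against it. For CmPSY1 the likest were MELO3C010778.2 (0.757 and 0.764) and MELO3C012713.2 (0.781 and 0.743), and MELO3C014208.2 (-0.725 and -0.755) and MELO3C021308.2 (-0.815 and -0.720) ran most against it. By this measure CmOr ranked 1298 of 16583 genes in likeness to CmPSY1, with r = 0.293 at Weslaco and 0.727 in the others.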

How the data were processed

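Per the submitters' processing notes, DESeq and DESeq2 were used, and the values that the authors deposited in 2 tables are variance-stabilised, close to log2 of normalised counts. The sources used here name no aligner, counter, build or annotation. The stabilising formula was inverted from the lowest value, 4.182278, that of a count of 0, which gave whole reads (at least 99.9555% of nonzero values within 0.05 of a whole number) and each library's size factor.

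Genes were tested where at least 3 libraries exceeded the lowest value by 1 unit, some 9.08 normalised reads, 17131 genes at Weslaco and 17383 in the F39 and TTDV table. The tables were fitted apart with limma 3.58.1 in R 4.3.3, 1 coefficient per group over all libraries of a table, empirical Bayes with trend and robust settings, and Benjamini-Hochberg adjustment over all genes with a threshold of 0.05. Pairs were adjusted over all genes and pairs together. Groups follow the titles, and replicate numbers only name libraries. Correlations used permutation tests (scipy 1.17.1). The fits were tested on simulated data.

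Likeness was ranked by the smaller (against: the larger) of the Pearson correlations in the 2 tables, naming 2 genes each way per member. The reference gene table matched 0 deposited IDs. The members, lists and alternatives (no filter, a stricter filter, quantile normalization, plain moderation, compared groups only, sample weights, voom, libraries left out) were chosen with earlier results of these data known. Leaving out the pair of similar libraries was chosen after the data were seen.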

Additional observations from a re-analysis of the deposited data

Results flagged for a closer look

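The difference of TTDV minus F39 in CmPSY1 varied between the 6 shared environments, with F = 5.55 in limma (adjusted p = 0.0083), where 29.4% of genes passed. It ranged from 2.20 at California to -0.99 at North Carolina, and the libraries of Uvalde 2019, whose labels are in doubt, were not needed for it (F = 7.72 without them).

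TTDV Uvalde 2018 replicate 3 stood apart from the other 5 Uvalde 2018 libraries in CmPSY1, at 10.12 on the log2-like scale, or 1081 normalised reads against 2052 to 2884. It also had the lowest CmOr there, at 791 against 936 to 1064 normalised reads. The library was shallow, with 8009419 reads in total. Its most similar library had r = 0.912 across genes, the lowest such value among the F39 and TTDV libraries. The rule set the gap to the next library against the range of the set. Of 12 sets of 5 or 6 libraries examined this way this was the only one. Chance marks about 1 in 20 sets drawn from a single population, but these sets pooled both cultivars, so that rate is only a guide.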

How the results depend on the processing

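No paired analysis was possible because the columns carry no replicate numbers shared between groups. The F tests at Weslaco, the CmPSY1 difference at California, its interaction and its TTDV environment test passed under each alternative run and with each library left out. CmPSY1 at Georgia was 1.01 without the filter and in the fit of compared groups alone, 0.91 after quantile normalization, 0.80 without Uvalde 2019 and 1.11 without F39 Georgia replicates 2 and 3, missing the threshold each time; leaving out single libraries gave 0.77 to 1.30. CmPSY1 at Uvalde 2019 ranged from -1.23 to -0.73 over libraries left out, and between years from -1.34 to -0.84; the year difference also missed the threshold in the fit of compared groups (-1.16) and without the pair of similar libraries (-0.84). CmOr at Uvalde 2019 passed with the stricter filter (-0.35), quantile normalization (-0.37), sample weights (-0.34) and without F39 Georgia replicates 2 and 3 (-0.38), ranging from -0.47 to -0.26 over libraries left out; between years it passed with the stricter filter (-0.43), weights (-0.43) and without those Georgia libraries (-0.43), ranging from -0.55 to -0.34.

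Sample weights moved past the threshold CmPSY1 at Uvalde 2019 between cultivars (-1.20), CmOr at California (0.50, and 0.38 to 0.64 over libraries left out), CmOr and CmPSY1 over F39 environments (F = 4.95 and 5.82), and CmOr (0.26) and CmPSY1 (-0.40) at North Carolina, and gave 7 CmOr and 16 CmPSY1 environment pairs. Without Uvalde 2019 CmPSY1 over F39 environments (F = 3.82) and at North Carolina (-0.89) passed. Groups then held 42.4% of the variance of CmOr, against 48.9% with all libraries, and 69.3% of that of CmPSY1, against 67.5%. Without the pair of similar libraries CmOr at California (0.51), CmOr (F = 3.25) and CmPSY1 (F = 3.13) over F39 environments passed, as did 4 CmOr pairs. Fits of compared groups gave 11 Weslaco pairs for CmOr and 3 environment pairs for CmPSY1. Shares over all genes were taken in the main fit only, so counts and calls under the alternatives have no such share beside them. Over libraries left out, F over F39 environments was 1.70 to 3.89 for CmOr and 1.496 to 3.80 for CmPSY1, and environment pairs 0 to 1 and 5 to 11.

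Signs changed only in differences that did not pass: the mean cultivar difference of CmOr was 0.050 with weights, 0.0061 without Uvalde 2019, 0.00024 without the pair of similar libraries and -0.058 to 0.030 over libraries left out. CmOr at Uvalde 2018 was 0.052 after quantile normalization and 0.061 with weights (-0.13 to 0.072 over libraries left out), at North Carolina 0.041 without the pair (-0.43 to 0.041), and at Uvalde 2019 -0.32 to 0.11. CmPSY1 at California over both cultivars was -0.011 with weights and -0.11 without Uvalde 2019. The causes were not tested.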
